A study of Mus musculus with 135 samples.

Results

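Transcripts of 9 lineage transcription factors were followed in single haematopoietic stem cells (HSCs) of young and old mice. The genes were taken by name from the 15181 genes of the read count table, all 9 were in it, and each had a read in at least 1 of the cells used. *Gata1*, *Klf1*, *Zfpm1*, *Gfi1b* and *Nfe2* are known as megakaryocyte and erythroid factors, and *Spi1*, *Cebpa*, *Cebpb* and *Gfi1* as granulocyte and macrophage factors. The question was how far these factors were transcribed in HSCs of each age, and whether factors of opposing lineages were found in the same cell.

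Both groups were C57BL/6 mice carrying the *Vwf*-eGFP reporter, a transgene in which green fluorescent protein follows the von Willebrand factor gene, so the young mouse used as the reference carried it too. Young was 2 to 3 months and old 20 to 25 months. Live bone marrow cells of the phenotype 7AAD-Lin-Sca-1+c-Kit+CD150+CD48- were sorted by a gate that, as given, did not select on the reporter. They were captured on microfluidic C1 chips and sequenced across the whole transcript. By the study's legend, 1 mouse was used per age, so age, mouse and capture run cannot be told apart, and no test between ages can be made. Sex-linked transcripts separated the libraries too. *Xist* was read above the limit defined below in 50 young and 8 old cells, and a Y-linked gene in 2 and 58, so sex cannot be told apart from age either.

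Of 61 young and 74 old cells, 52 and 62 passed the study's limits and were used. The reads counted on genes ranged from 273236 to 5688706 per young cell (median 2798990) and from 276316 to 4086659 per old cell (median 2116024). A level is log2(CPM + 1), where CPM is a gene's reads scaled to the total counted in that cell, and a gene counted as expressed in a cell above a level of 2. The median number of genes expressed was 4115.5 in young and 3901.5 in old cells. Of 11 markers of the sort, *Kit* was expressed in 49 young and 61 old cells and *Hlf* in 49 and 55, while *Cd48*, which the sort removes, was expressed in 1 and 0. *Slamf1*, the gene of CD150, was expressed in 9 young and 15 old cells only, although the sort selected the protein. Across the 11 markers the median difference, old minus young, was 0.85. Intervals below are 95% exact intervals (Clopper-Pearson for shares, Poisson for reads). They cover counting error within 1 mouse. The reads carry no molecular identifiers, so the intervals for reads leave out amplification and the spread between cells.

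Blood lineages are chosen by small sets of transcription factors that switch on the genes of one fate and hold back those of another. GATA1 with its cofactor FOG-1 drives red cells and megakaryocytes, the platelet-forming cells, whereas PU.1 and the C/EBP factors drive granulocytes and macrophages. GATA1 and PU.1 bind and inhibit each other, and low transcription of factors of several lineages in one stem cell is known as lineage priming.

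The table gives gene symbols without coordinates, and positions here are RefSeq positions on GRCm38. *Gata1* lies at chrX:7959260-7976663, *Klf1* at chr8:84901982-84905291, *Zfpm1* at chr8:122281856-122337862, *Gfi1b* at chr2:28609450-28621982, *Nfe2* at chr15:103248212-103258403, *Spi1* at chr2:91082374-91115759, *Cebpa* at chr7:35119293-35121928, *Cebpb* at chr2:167688915-167690432 and *Gfi1* at chr5:107716655-107725805. Long noncoding RNA genes overlap *Gata1* (Gm39488 and Gm52419), *Zfpm1* (Gm39269) and *Gfi1b* (Gm52548), and since no source states that strand was used in counting, their reads cannot be separated.

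The upstream sequences of *Gfi1b* and *Klf1* are shown because, of the 7 factors with an entry, they alone held a hexamer that GATA factors bind. Each runs 5' to 3' in the direction of its gene and ends at the base before the RefSeq start (GRCm38.p6, chr2:28621983-28622232 on the minus strand for *Gfi1b* and chr8:84901732-84901981 on the plus strand for *Klf1*). Capitals mark a GATA hexamer, which is A or T followed by GATA and by A or G, on either strand.
Gfi1b: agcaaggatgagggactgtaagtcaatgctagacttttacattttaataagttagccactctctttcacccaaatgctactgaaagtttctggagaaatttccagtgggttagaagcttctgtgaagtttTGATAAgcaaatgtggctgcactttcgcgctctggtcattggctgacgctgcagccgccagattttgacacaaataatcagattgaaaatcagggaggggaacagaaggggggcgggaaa
Klf1: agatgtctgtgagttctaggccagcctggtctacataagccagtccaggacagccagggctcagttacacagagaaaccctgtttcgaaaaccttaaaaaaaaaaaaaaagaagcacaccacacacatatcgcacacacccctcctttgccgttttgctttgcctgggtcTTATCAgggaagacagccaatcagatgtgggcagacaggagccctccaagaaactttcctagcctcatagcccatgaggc
The hexamer began at position -120 in *Gfi1b* and at -80 in *Klf1*, counted from the start site. A hexamer of this kind was found in 26.5% of the 32851 RefSeq promoter windows of 250 bases, so its presence is common. The *Gfi1b* window also held AAATCA, a core that GFI1 proteins bind, which was in 12.4% of windows. The windows of *Gata1*, *Zfpm1*, *Cebpa* and *Cebpb* held none of the motifs searched, which were also TGAGTCA for NFE2 (4.46% of windows), GAGGAAG for PU.1 (10.6%), TTGCNNAA for C/EBP (9.56%) and CCACACCC for KLF1 (3.20%). The 2 windows of *Gfi1* held 1 match to the C/EBP motif. *Nfe2* and *Spi1* had no entry.

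Among the megakaryocyte and erythroid factors, *Nfe2* and *Gfi1b* carried most of the signal, and *Gata1* and *Klf1* were read in a few cells. *Nfe2* encodes the p45 subunit of NF-E2, which pairs with small Maf proteins and is needed for platelet release. It was expressed in 41 of 52 young cells (78.8%, 65.3 to 88.9%) and 51 of 62 old cells (82.3%, 70.5 to 90.8%). Its level ran from 0 through a median of 6.42 to 10.65 in young cells and from 0 through 7.37 to 10.31 in old cells. The 2 ages overlapped over nearly the whole range, and the mean level was 5.77 ± 3.31 (SD over 52 cells) in young and 6.09 ± 3.20 (62 cells) in old.

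*Gfi1b*, a zinc finger repressor of erythroid and megakaryocyte cells, was below the limit in most cells and high in many of those above it. It was expressed in 14 young cells (26.9%, 15.6 to 41%) and 21 old cells (33.9%, 22.3 to 47%), and at least 1 read was found in 26 and 32 cells. Where expressed, its median level was 7.70 in young and 7.77 in old cells, with minima of 2.2 and 2.1 and maxima of 10.33 and 10.32. The mean level over all cells was 2.02 ± 3.35 in young and 2.46 ± 3.53 in old.

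*Zfpm1* encodes FOG-1, through which GATA1 reaches the nucleosome remodelling complex NuRD. It was expressed in 16 young cells (30.8%, 18.7 to 45.1%) and 21 old cells (33.9%, 22.3 to 47%), and at least 1 read was found in 27 and 33 cells. Its median level where expressed was 3.97 in young and 4.0 in old cells. The mean level was 1.58 in young and 1.6 in old cells. Its reads summed to 3001 (2895 to 3110) over young cells and to 832 (776 to 891) over old cells, intervals that leave out the spread between cells. A single young cell, B7, gave 1217 of the young reads, or 40.6%.

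*Gata1* was expressed in 2 young cells (3.85%, 0.469 to 13.2%) and 3 old cells (4.84%, 1.01 to 13.5%). The levels were 9.25 and 7.36 in the young and 8.52, 9.08 and 2.74 in the old cells, so a level above 7 was found in 4 cells of 114. *Gata1* lies on the X chromosome, and the part of the difference in sex-linked transcripts was not tested. *Klf1*, the erythroid factor that switches on adult beta-globin, was expressed in young cells C6 (872 reads, level 8.08) and G11 (252 reads, level 6.86). In the old cells no read of *Klf1* was counted, and 0 of 62 cells allows a share of up to 4.84%, above the young share of 3.85%. A difference in *Klf1* was therefore not detectable with these numbers of cells.

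**Figure D1:**
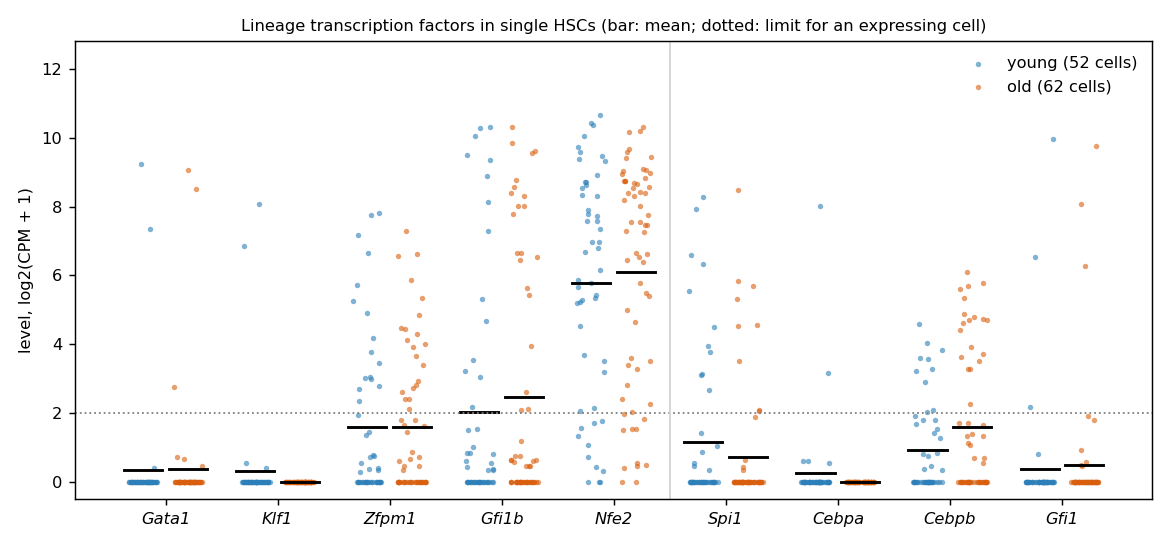
Level, log2(CPM + 1), of the 9 factors in each of 52 young (blue) and 62 old (orange) cells, with the mean as a bar and the limit for an expressing cell as a dotted line. *Nfe2* filled the range up to 10.65, *Gfi1b* was below the limit in most cells and reached 10.33, and *Gata1*, *Klf1*, *Cebpa* and *Gfi1* were above the limit in at most 3 cells of an age.

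Among the granulocyte and macrophage factors, *Cebpb* and *Spi1* were found in a minority of cells, and *Cebpa* and *Gfi1* in few. *Spi1* encodes PU.1, an ETS factor required for macrophages, granulocytes and B cells. It was expressed in 11 young cells (21.2%, 11.1 to 34.7%) at levels from 2.68 through a median of 4.49 to 8.28. It was expressed in 9 old cells (14.5%, 6.86 to 25.8%) at levels from 2.05 through 4.54 to 8.49. The levels of expressing cells overlapped, and of the 1348 reads in old cells, 958 (71.1%) came from the single cell E10.

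*Cebpb*, which encodes C/EBPbeta, a factor of macrophages and of emergency granulocyte production, showed the largest difference among the 9 genes. It was expressed in 10 young cells (19.2%, 9.63 to 32.5%) and 19 old cells (30.6%, 19.6 to 43.7%), with overlapping intervals. Its median level where expressed was 3.42 in young and 4.70 in old cells, with maxima of 4.57 and 6.09. Its reads summed to 313 (279 to 350) over young cells and to 993 (932 to 1057) over old cells, intervals that leave out the spread between cells. No single cell of an age held more than 18.8% of these reads. After each cell was thinned to 250000 reads, the share was 26.9% in young and 29% in old cells, but at that depth a single read already passes the limit. Without thinning, the shares were 44.2% and 48.4% with a limit of 1 read, and 9.62% and 25.8% with a limit of 10 CPM. The gap between the ages thus depended on the limit, and the part of depth was not tested.

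*Cebpa*, which encodes C/EBPalpha, the factor that commits progenitors to the granulocyte and monocyte fate, was expressed in young cells E3 (799 reads, level 8.01) and H11 (24 reads, level 3.16). No read was counted in the 62 old cells, which again allows a share of up to 4.84%. *Gfi1*, a repressor needed for neutrophils, was expressed in 3 young cells (5.77%, 1.21 to 15.9%) and 3 old cells (4.84%, 1.01 to 13.5%). The young levels were 2.19, 6.53 and 9.96 and the old levels 6.28, 8.08 and 9.77. The lowest of these rested on 1 read, in young cell A4, while cell D6 alone held 4036 of the 4307 young reads (93.7%).

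**Figure D2:**
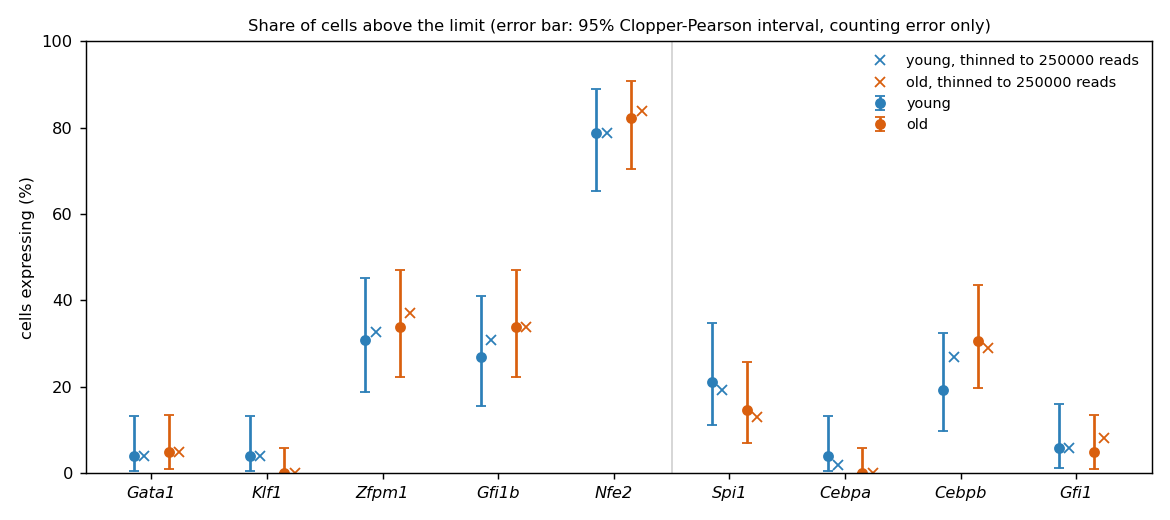
Share of cells (%) above the limit for each factor in young (blue) and old (orange) cells, with 95% exact intervals for counting error as bars and crosses for cells thinned to 250000 reads. The intervals of the 2 ages overlapped for all 9 factors, and *Cebpb* went from 19.2% and 30.6% to 26.9% and 29% after thinning.

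To order the genes, mean CPM was divided by transcript length. *Nfe2* was first, with 142 ± 207 CPM per kb (mean ± SD over cells) in young and 139 ± 164 in old cells, and *Gfi1b* second, with 62.8 ± 170 and 56.8 ± 136. *Spi1*, *Gata1*, *Gfi1*, *Zfpm1* and *Klf1* followed in young cells between 8.0 and 4.85 CPM per kb, and *Cebpa* (1.95) and *Cebpb* (1.54) were last. In old cells *Gata1* (7.73), *Gfi1* (6.91), *Cebpb* (5.55), *Spi1* (4.51) and *Zfpm1* (3.09) followed *Gfi1b*, and *Klf1* and *Cebpa* had no read. The SD over cells exceeded the mean for each gene with a read. It describes the spread between cells and not the error of a mean, and the order was not tested.

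None of the 9 factors differed between ages by 1 or more in mean level, the size taken as a call in place of a test. By that size 8.4% of the 15014 genes with a read were called, 3.91% higher and 4.49% lower in old cells. A share of 10% of the cells or more was reached by 9374 genes, 5 of the 9 factors among them (*Zfpm1*, *Gfi1b*, *Nfe2*, *Spi1* and *Cebpb*), and 13.2% of these genes were called (6.24% higher and 6.98% lower). In mean level, old minus young, the differences were 0.66 for *Cebpb*, 0.44 for *Gfi1b*, 0.32 for *Nfe2*, 0.11 for *Gfi1*, 0.03 for *Gata1* and 0.02 for *Zfpm1*. They were -0.25 for *Cebpa*, -0.31 for *Klf1* and -0.43 for *Spi1*. The median was 0.03 over the 9 factors and -0.02 over all genes with a read. It was 0.03 for the 5 megakaryocyte and erythroid factors (4 above and 1 below 0) and -0.07 for the other 4 (2 above and 2 below).

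The summary used decided several of these values. As a log2 ratio of mean CPM, which weights cells with many reads, *Cebpb* was at 1.85, *Spi1* at -0.83, *Zfpm1* at -0.70, *Gfi1b* at -0.14, *Gfi1* at -0.09, *Nfe2* at -0.03 and *Gata1* at -0.01. The sign thus turned for 5 of the 6 factors with a positive difference in mean level, and *Cebpb* was the exception. *Cebpb* kept a positive and *Spi1* a negative difference under each of the alternatives tried, from 0.44 to 1.85 and from -0.83 to -0.21. Without the 2 young and 8 old cells that held the sex-linked transcripts typical of the other mouse, the difference was 0.00 for *Gfi1b*, 0.17 for *Nfe2* and 0.89 for *Cebpb*.

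*Gfi1b* was the factor whose difference depended most on which cells were compared. The genes of mitotic entry *Cdk1*, *Cdc25c*, *Ccna2* and *Ccnb1* divided the cells, since 27 young and 13 old cells expressed at least 1 of them. All 4 genes were lower in old cells by more than the size used as a call, with a median difference of -1.55. Of all genes 4.49% were called lower, and 6.98% of those reaching 10% of the cells. The paper had named these 4 genes as more often expressed in the young HSCs of these data, so their direction is no independent support. Among young cells with such a transcript, 12 of 27 expressed *Gfi1b* (44.4%, 25.5 to 64.7%), against 2 of 25 without (8.0%, 0.984 to 26%). Among old cells the counts were 4 of 13 (30.8%, 9.09 to 61.4%) and 17 of 49 (34.7%, 21.7 to 49.6%).

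In the cells without a cell cycle transcript, the mean level of *Gfi1b* was 0.85 in 25 young and 2.41 in 49 old cells, a difference of 1.56. Of 14486 genes with a read in these cells, 7.75% were higher in old cells by 1 or more and 4.29% lower (12.3% and 6.46% of those reaching 10% of the cells). The other 8 factors stayed under that size, with *Cebpb* at 0.81, *Nfe2* at 0.65 and *Zfpm1* at 0.56. The young value rested on cell E1 (level 10.27) and cell D8 (3.55), and the next highest was 1.53. After thinning, 4 of 25 young and 17 of 49 old cells expressed *Gfi1b*. The young cells without a cell cycle transcript had a median of 2941748 reads and 3862 genes expressed, and the old 2096724 reads and 3939 genes. The young cells with such a transcript had 2686914 reads and 4614 genes, so within the young cells *Gfi1b* went with the number of genes expressed, whose part was not tested. The old cells with one had 2298859 reads and 3760 genes. Without the cells holding sex-linked transcripts of the other mouse, 2 of 25 young and 13 of 43 old cells expressed it, a difference of 1.18 in mean level. The part of the capture run in this value was not tested.

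**Figure D3:**
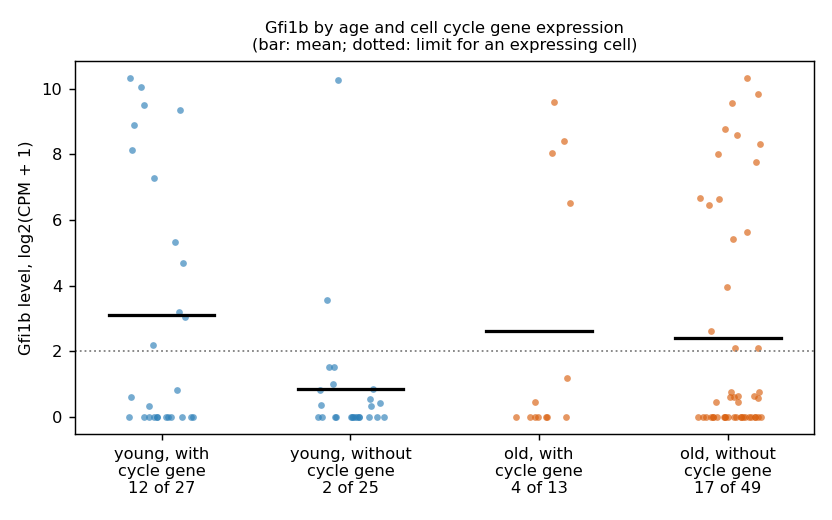
*Gfi1b* level, log2(CPM + 1), in each cell by age and by expression of at least 1 of the 4 cell cycle genes, with the mean as a bar, the limit for an expressing cell as a dotted line and the number of expressing cells under each column. Young cells without a cell cycle transcript had 2 of 25 cells above the limit, and the other columns 12 of 27, 4 of 13 and 17 of 49.

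The more frequent of the other megakaryocyte and erythroid factors were expressed in both kinds of cell at each age. *Zfpm1* was expressed in 9 of 27 young cells with and 7 of 25 without a cell cycle transcript, and in 2 of 13 and 19 of 49 old cells. *Nfe2* was expressed in 22 of 27 and 19 of 25 young and in 9 of 13 and 42 of 49 old cells. Both *Klf1* cells and both young *Gata1* cells had a cell cycle transcript, as did 2 of the 3 old *Gata1* cells, while neither *Cebpa* cell did.

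Since the mice carried a *Vwf* reporter, cells were also divided by *Vwf* transcripts, which 30 young and 37 old cells expressed. *Gfi1b* was expressed in 9 of 30 young cells with and 5 of 22 without *Vwf*, and in 16 of 37 (43.2%) and 5 of 25 (20.0%) old cells. *Cebpb* was expressed in 8 of 30 and 2 of 22 young and in 13 of 37 and 6 of 25 old cells, and *Spi1* in 9 of 30 and 2 of 22 young and 5 of 37 and 4 of 25 old cells. *Nfe2* went the other way, in 22 of 30 and 19 of 22 young and in 30 of 37 and 21 of 25 old cells, and *Zfpm1* was expressed in 9 of 30 and 7 of 22 young and in 13 of 37 and 8 of 25 old cells. The factors thus shared no direction, and for each of these 5 the intervals of cells with and without *Vwf* overlapped at both ages.

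The cells with *Gata1* were the clearest case of factors found together. All 5 also expressed *Gfi1b*, whereas the product of the shares of the genes gives 0.538 young and 1.02 old cells. Young cell A7 held *Gata1* at 9.25 with *Zfpm1* at 6.65, *Gfi1b* at 4.67 and *Nfe2* at 7.34. Old cell G10 held it at 9.08 with *Gfi1b* at 8.31, *Nfe2* at 8.41 and *Zfpm1* at 2.10, and expressed 11 of 16 megakaryocyte genes and 1 of 9 erythroid genes. Neither cell expressed a granulocyte or macrophage factor.

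The other 3 *Gata1* cells expressed *Spi1* as well, the opposing factor. Young cell G11 held *Gata1* at 7.36 and *Klf1* at 6.86 with *Spi1* at 3.13, expressed 6 of the 9 factors and 6 of 9 erythroid genes, and was the cell with the most factors. Old cell C3 held *Gata1* at 8.52 with *Spi1* at 5.85, and *Gfi1b* at 8.02. Old cell G9 held 18 reads of *Gata1* (2.74) with *Spi1* at 3.51, *Cebpb* at 5.61 and *Gfi1b* at 6.52, and no *Nfe2*. The 3 cells expressed 5258, 5583 and 4204 genes, all above their age's median. The capture sites had been imaged by phase contrast for a single cell, no further doublet caller was run, and the part of doublets was not tested.

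Opposing factors were taken as 10 pairs, namely *Spi1* with *Gata1*, *Klf1*, *Gfi1b*, *Gfi1* and *Nfe2*, *Cebpa* with *Gata1*, *Klf1* and *Zfpm1*, *Cebpb* with *Zfpm1*, and *Gfi1* with *Gfi1b*. The pair of *Spi1* with *Gfi1* lies within the granulocyte and macrophage factors, and other pairs across both kinds, such as *Nfe2* with *Cebpb*, were left out. At least 1 such pair was found in 13 of 52 young cells (25%, 14 to 38.9%) and 11 of 62 old cells (17.7%, 9.2 to 29.5%). Summed over the pairs, 18 co-expressions were counted in young and 16 in old cells, beside 17.8 and 18.8 from the product of shares. With a limit of 1 read, at least 1 pair was found in 53.8% (young) and 45.2% (old) of cells, and with 10 CPM in 13.5% and 12.9%. The share thus depended on the limit, while the order of the ages depended on the pairs taken. When any factor of each kind counted, the share was 30.8% in young and 38.7% in old cells.

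The 8 cooperating pairs, among them *Gata1* with *Zfpm1*, *Klf1*, *Gfi1b* and *Nfe2* and *Spi1* with *Cebpb*, gave 11 co-expressions in young and 12 in old cells beside products of 5.85 and 7.26. *Spi1* and *Cebpb* were found together in 4 young and 5 old cells, beside 2.12 and 2.76. These are descriptions of small counts within 1 mouse each, and cells with more genes expressed raise any such count.

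Of the opposing pairs, *Nfe2* with *Spi1* was the most frequent in young cells, in 9 of 11 *Spi1* cells beside a product of 8.67. In old cells it was found in 5 cells beside 7.40. *Gfi1b* with *Spi1* was found in 3 young cells beside 2.96 and in 6 of 9 old *Spi1* cells beside 3.05. In those 6 old cells *Gfi1b* lay between 6.52 and 9.56, while *Nfe2* was above the limit in 3 of them (cells C3, C9 and E10). *Zfpm1* with *Cebpb* was found in 3 young and 3 old cells, beside 3.08 and 6.44.

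The pairs of *Cebpa* with *Gata1*, *Klf1* and *Zfpm1*, and that of *Gfi1* with *Spi1*, were not found in a cell of either age. Their products were at most 0.635 cells, so a co-expression at that rate was not detectable with these numbers. *Gfi1* with *Gfi1b* was found in 1 young cell, A4, which rests on the single *Gfi1* read. *Cebpa* cell E3 held *Nfe2* at 10.04 and no other factor, and cell H11 held *Spi1* at 5.53.

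**Figure D4:**
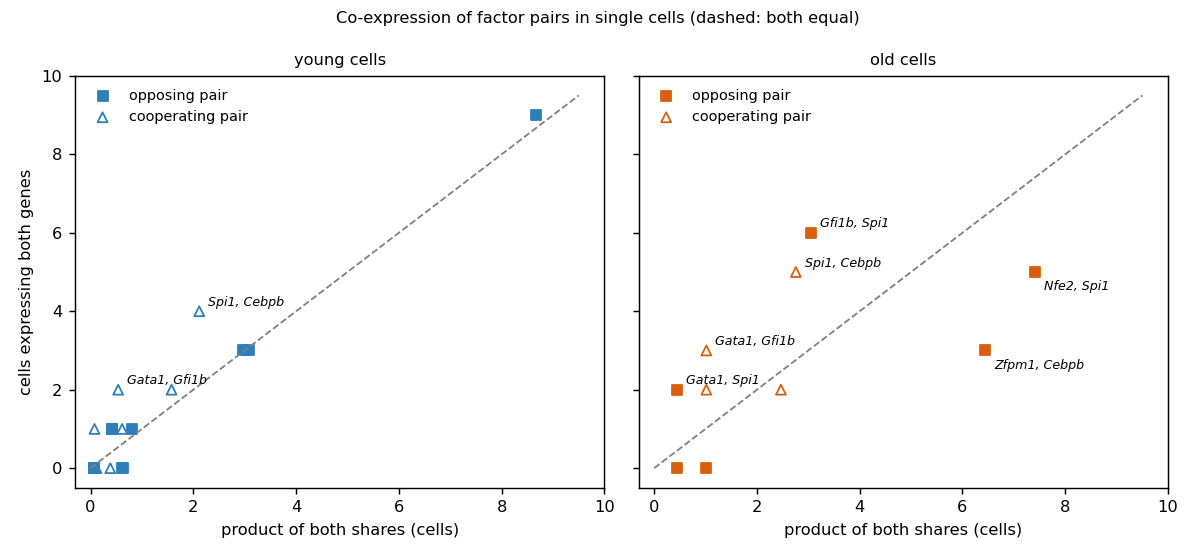
Cells expressing both genes of a pair (vertical axis) against the number the product of both shares gives (horizontal axis), for 10 opposing pairs (squares) and 8 cooperating pairs (triangles) in young cells (left). Old cells are on the right, without the pairs of *Klf1* and *Cebpa*, which no old cell expressed. The dashed line is where both are equal. Opposing pairs lie close to the line in young cells, and in old cells *Gfi1b* with *Spi1* lies above it (6 against 3.05) and *Zfpm1* with *Cebpb* below (3 against 6.44).

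Taken by cell, 26 young (50%) and 31 old cells (50%) expressed megakaryocyte and erythroid factors only. Factors of both kinds were expressed in 16 young (30.8%, 18.7 to 45.1%) and 24 old cells (38.7%, 26.6 to 51.9%), and no factor in 5 (9.62%) and 6 (9.68%). Granulocyte and macrophage factors without any of the others were found in 5 young cells (9.62%, 3.20 to 21%) and 1 old cell (1.61%, 0.0408 to 8.66%). The mean number of factors per cell was 1.94 ± 1.18 (SD, 52 cells) in young and 2.05 ± 1.15 (62 cells) in old. Across cells it went with the number of genes expressed (r = 0.42 in young and 0.19 in old cells) and less with reads (r = -0.23 and -0.16), as a description over cells that share a library run.

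Of 12 GATA, ETS and basic helix-loop-helix partners, 1 was called, a share close to the 8.4% of all genes. *Gata2*, the GATA factor of stem cells that GATA1 replaces during differentiation, had a mean level of 7.11 in young and 9.49 in old cells and was expressed in 45 of 52 and 62 of 62. *Myb*, a factor of progenitor growth, was just under the size at 7.56 and 6.58. The median difference of the list was 0.04, with 7 genes above and 5 below 0, and *Lmo2* was expressed in all cells.

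All 7 small Maf, CNC and BACH partners of NFE2 had positive differences, with a median of 0.48. With all cells, with the wider limits and without cells expressing a cell cycle gene, 6 were above and 1 below 0. *Nfe2l1*, a relative of *Nfe2*, was called, at 1.72 in young and 2.87 in old cells, though no gene of the list was called with all cells, with the wider limits or without the cells holding sex-linked transcripts of the other mouse. *Mafk*, which encodes a small Maf that pairs with p45, was expressed in 3 young and 15 old cells, at 0.37 and 1.19. The median over all genes was -0.02, and a direction shared by 7 genes of 1 mouse per age was not tested.

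Of 10 other C/EBP and myeloid factors, 3 were called higher and 1 lower in old cells (3.91% and 4.49% of all genes, and 6.24% and 6.98% of those reaching 10% of the cells), with a median difference of 0.34. *Id2*, which encodes an inhibitor of basic helix-loop-helix factors, was at 0.94 in young and 4.37 in old cells (8 and 35 cells). *Irf1*, an interferon response factor, was at 2.68 and 4.28, and *Jun*, a subunit of AP-1, at 5.48 and 7.03. *Klf4*, a factor of monocytes, was lower in old cells, at 3.97 and 2.51. *Cebpd*, *Cebpe* and *Irf8*, which mark committed granulocyte and monocyte cells, were expressed in at most 3 cells of an age.

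The corepressors that GFI1 and GFI1B recruit, 8 genes such as *Kdm1a* and *Rcor1*, had a median difference of -0.03, with 4 above and 4 below 0 and none called. Of 12 NuRD subunits, through which FOG-1 acts, 9 were below 0 (median -0.16). *Rbbp4* (6.34 and 4.97) and *Rbbp7* (6.87 and 5.50), histone chaperones, were called lower, and *Chd4*, the remodelling ATPase, higher (5.04 and 6.15). All 12 reached 10% of the cells, and of such genes 6.98% were called lower and 6.24% higher. The call of *Chd4* was lost with all cells, with the wider limits, and on leaving out either the cells expressing a cell cycle gene or those holding sex-linked transcripts of the other mouse. Without cells expressing a cell cycle gene, 1 of the 2 lower calls was lost too, and the median of the NuRD list was 0.14, with 7 above and 5 below 0.

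Among genes downstream of the factors, the megakaryocyte list had the highest median difference. Of 16 megakaryocyte genes with a read, 12 were above and 4 below 0 (median 0.59). Calls were made for 4, all higher in old cells, beside 3.91% of all genes and 6.24% of those reaching 10% of the cells. The list was chosen with earlier results of these data known, and the paper had named *Selp* and *Itgb3* among genes upregulated in these old HSCs. The count is therefore a description and no independent support. Among the genes called were *Selp*, P-selectin of platelets (0.66 and 5.12), *Plek*, pleckstrin (1.69 and 5.01), and *Itgb3*, integrin beta 3 (1.43 and 4.27). The summed level of the list ran from 4.49 to 68.4 in young and from 12.1 to 110.7 in old cells.

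Of 20 erythroid genes listed, 9 had a read, with a median difference of 0.05 and 5 above 0. *Car2*, a carbonic anhydrase, was expressed in every cell. *Alas2*, the first enzyme of haem synthesis in red cells, was expressed in 0 young and 3 old cells, *Epor* in 4 and 1, and *Hba-a1* had no read. The summed level ran from 4.80 to 35.6 in young and from 10.1 to 36.1 in old cells.

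Of 13 granulocyte and macrophage genes with a read, 6 were above 0, with a median of -0.03. *Prtn3*, a granule protease also read in progenitors, was called higher (4.62 and 7.11; 38 and 59 cells). *Mpo* was expressed in 2 and 1 cells and *Elane* in 0 and 1. The lysozyme gene *Lyz2*, in contrast, was expressed in 43 and 43 cells (5.82 and 5.26), and *Lyz1* in 39 and 38. The summed level ran from 5.28 to 47.8 in young and from 7.16 to 47.1 in old cells. Of 4 mast cell and basophil markers (median 0.08), *Cpa3* and *Hdc* were expressed in no cell. Of 5 lymphoid markers (median -0.07), *Il7r* was expressed in no cell, *Dntt* in 2 young and 0 old cells and *Flt3* in 5 and 2, while *Cd79b*, part of the B cell receptor, was expressed in 12 and 16 (1.82 and 1.97).

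**Figure D5:**
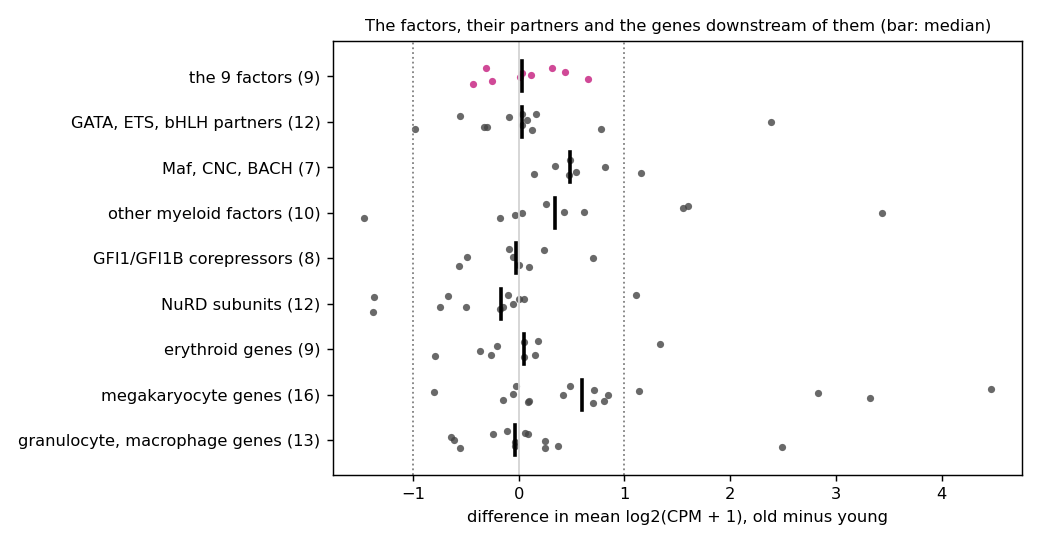
Old minus young, in mean log2(CPM + 1), for the 9 factors (pink) and for the genes of 8 lists (grey), with the median as a bar, the number of genes with a read in brackets and the size used as a call dotted at 1 and -1. None of the 9 factors passes a dotted line, while *Gata2* (2.39), *Id2* (3.43), *Prtn3* (2.49) and 4 megakaryocyte genes do.

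Cells with a factor were compared with cells without it for the genes downstream. Old cells with *Gfi1b* expressed a median of 7 of 16 megakaryocyte genes (4 to 11, 21 cells), and those without 5 (1 to 15, 41 cells). Young cells with *Gfi1b* expressed 4.5 (1 to 7, 14 cells) and those without 3 (1 to 11, 38 cells). Cells with *Gfi1b* also expressed more genes in all, with medians of 4266 against 3776 in old and 4431.5 against 4101.5 in young cells, and the part of this in the counts was not tested. Cells with *Spi1* expressed a median of 5 of 13 granulocyte and macrophage genes and cells without it 4, in both ages, and the ranges overlapped. The other lists moved as well, since young cells with *Spi1* expressed 5 megakaryocyte genes against 3 and 3 erythroid genes against 2, and cells with *Gfi1b* expressed 5 granulocyte and macrophage genes against 4 in both ages. Cells with *Spi1* also expressed more genes in all (medians of 4269 against 3966 in young and 4066 against 3892 in old cells), so these counts do not tie a factor to the genes of its own lineage.

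Over the 6940 genes read above the limit in 20% of cells or more, the patterns most like each factor were weak. By the smaller of the correlations within young and within old cells, *Yy1* (0.37 and 0.35) and *Dnajb1* (0.45 and 0.32) were nearest to *Gfi1b*, *Zdhhc12* (0.47 and 0.36) and *Sdsl* (0.32 and 0.44) to *Zfpm1*, and *Tsc22d2* (0.41 and 0.34) and *F11r* (0.30 and 0.34) to *Cebpb*. None reached 0.3 for *Nfe2*. The correlations are over 52 and 62 cells that share a run and differ in depth, and in counts this sparse they describe the data and nothing more.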

How the data were processed

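The authors sequenced single cells as 51-base reads, mapped them to mm10 with TopHat 2.0.10 (per the labels), keeping 1 alignment per read, and counted them with rpkmforgenes on RefSeq genes. The deposited table holds whole-number counts per gene and cell for 135 cells, with no normalization. The 114 cells passing the study's limits on mapped reads, mitochondrial share and detected genes were taken from its cell list. The limits of that list act on all mapped reads, whereas depth here is reads counted on genes. Well names recur between ages (46 names), no 2 cells had identical counts, and no cell column was left unmapped.

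Counts were scaled to CPM by the total of the cell, and levels took a pseudocount of 1 CPM. Expressing was log2(CPM + 1) above 2. With 1 mouse per age no test was made. A difference in mean level of 1 or more was called, and where no cell expressed a gene, 3 cells of those examined gave the upper limit. The product of shares is the product of the shares of cells expressing each gene, times the cells. For thinning, reads were drawn at random to 250000 per cell. Transcript lengths and RefSeq links came from GENCODE, positions, promoters and names from RefSeq (GRCm38). Promoter entries matched 7 of the 9 factors.

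The 9 genes and the lists (lineage partners, downstream genes, markers of the sort and of mast and lymphoid cells, cell cycle genes) were chosen with earlier results of these data known. All 9 were named, and of each list at most 5 genes with the largest differences among genes read above the limit in 10% of cells or more, and defining genes at or near 0. *Cebpe*, *Irf8*, *Kdm1a*, *Lmo2*, *Myb*, *Rcor1* and *Mafk* were named by role.

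Alternatives were all cells, the 128 cells of wider limits, cells without a cell cycle transcript, cells without the fewest reads, thinning, a pseudocount of 0.1 CPM, a ratio of mean CPM, scaling by DESeq2 1.42.0 (poscounts) or edgeR 4.0.16 (TMMwsp), a filter at 10% of cells, and limits of 1 read or 10 CPM. Steps were tested on simulated data. The software was R 4.3.3 and Python 3.11.15 with scipy 1.17.1, numpy 2.4.6 and pandas 2.3.3. The PCR and transplantation experiments of the study were not analysed here, and values of some genes of the lists are not reported here.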

Additional observations from a re-analysis of the deposited data

Results flagged for a closer look

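The 21 cells outside the study's limits, 9 young and 12 old, entered no comparison. The values of 3 factors in them are given because they exceed the 3 cells that a count of 0 allows, a limit that any frequently expressed gene passes, so nothing unusual is shown. *Nfe2* was expressed in 12 of these cells (7 young and 5 old), beside 41 of 52 young and 51 of 62 old cells within the limits, *Zfpm1* in 7 (3 and 4) and *Cebpb* in 6 (1 and 5). *Gfi1b* was expressed in 3 of them, *Spi1* in 2 and *Gfi1* in 1, and *Gata1*, *Klf1* and *Cebpa* in 0, none of them above that limit.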

How the results depend on the processing

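Of the alternatives of the summary values, 54 stayed within their limits (1.5 times for a count, mean or ratio, the 95% interval for a share) and 6 did not. The number of factors differing by 1 or more between ages, 0 as reported, was 1 without the cells that expressed a cell cycle gene (*Gfi1b*) and 3 with the log2 ratio of mean CPM, namely *Cebpb* (1.85), *Klf1* (-8.28) and *Cebpa* (-7.74). The last 2 stand against a floor of 3 reads over the old cells, and *Klf1* and *Cebpa* each rest on 2 young cells. With 1 read as the limit, the share of cells with an opposing pair was 53.8% (young) and 45.2% (old), and the mean number of factors per young cell was 3.04. With 10 CPM as the limit the share in young cells was 13.5%. Without the cells with the most genes expressed, a setting chosen after seeing the data, the shares were 24% and 18.6%, and without the cells holding sex-linked transcripts of the other mouse, chosen likewise, 24% and 20.4%. For single factors, 246 values stayed within their limits and 20 did not. *Zfpm1* turned sign with all cells (-0.04), poscounts factors (-0.03) and the last of these settings (-0.11), and *Gfi1* without the cells that expressed a cell cycle gene (-0.12). With the ratio of mean CPM, *Gata1* (-0.01), *Gfi1* (-0.09), *Gfi1b* (-0.14), *Nfe2* (-0.03) and *Zfpm1* (-0.70) turned. No scaling moved the median of all genes by 0.1 or more. No paired analysis was possible because each age is 1 mouse and the cells carry no shared replicate numbers, and for the same reason no replicate could be left out. The cause of these changes was not tested.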
